A study of Cucumis melo with 8 samples.

Results

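The miR396 family of melon was followed through fruit development in the fruit flesh (mesocarp) of ‘Flavor No. 4’, a Hami melon variety. Its members were chosen by name: cme-miR396a, cme-miR396b, cme-miR396c, cme-miR396d and cme-miR396e, which make up 5 of the 116 names in the deposited table. Names that share a mature sequence carry the same value, and cme-miR396a, cme-miR396c and cme-miR396d share theirs, so the family was counted as 3 of 71 distinct mature sequences. These are called miR396a/c/d, miR396b and miR396e below.

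MicroRNAs are small RNAs that guide the cleavage or the translational repression of messenger RNAs with a matching site. In flowering plants the best known targets of miR396 are mRNAs of GROWTH-REGULATING FACTORs (GRFs), transcription factors that promote cell proliferation in young organs. In Arabidopsis leaves, more miR396 means fewer dividing cells, and in tomato, blocking miR396 gives larger fruits. Targets were not measured in the libraries described here.

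Small RNA was sequenced from 8 libraries, 2 for each of 4 stages: 10, 20, 30 and 40 days after flowering (10DAF, 20DAF, 30DAF and 40DAF), which the study calls young, expanding, premature and mature fruit. All fruits came from hand-pollinated greenhouse plants of that variety, and the labels name no treatment or genotype that separates the groups. The suffix 1 or 2 of a library name was read as the first or second batch. RNA of several fruits was mixed for each library of the first batch and not for the second, and the batches also differ in growing year and sequencer, so these properties cannot be told apart. Values are given in TPM as the authors name it, which here means reads of a miRNA per 1000000 reads counted in that library, with no division by length. The read totals recovered from the values ran from 105077 to 985263, and 3 reads were worth 3.04 to 28.6 TPM. Each member stood above that floor in all 8 libraries. Within a stage the replicates are 1 library from each batch, so that a p-value over them measures the spread between batches.

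The mature sequences are printed because the results turn on how little they differ; capitals mark bases 2 to 8 from the 5′ end, the seed, and all 3 are 21 bases long.
miR396a/c/d: uUCCACAGcuuucuugaacuu
miR396b: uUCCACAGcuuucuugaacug
miR396e: uUCCACGGcuuucuugaacug
Counted from the 5′ end, with miR396b as the reference, miR396a/c/d carries the substitution G21U at its last base and miR396e carries A7G inside the seed. The seed UCCACAG occurred in 2 of the 71 distinct sequences, miR396a/c/d and miR396b, and UCCACGG occurred in 1, miR396e. No sequence of equal length outside the family was close, with 9 to 10 mismatches to the nearest of 48 compared. The authors allowed 1 mismatch when they matched reads to known miRNAs, and miR396b differs by 1 base from miR396a/c/d and by 1 from miR396e. Even an unaltered read of miR396b therefore fits all 3 sequences within that limit. How reads that fit more than 1 sequence were assigned is not given in the sources used here, and the part of such reads in the values was not tested.

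The precursors of the members with the shared seed are printed for the most abundant sequence and for 1 of the 3 names that carry the other, to show where the mature miRNA, in capitals, lies.
cme-MIR396a: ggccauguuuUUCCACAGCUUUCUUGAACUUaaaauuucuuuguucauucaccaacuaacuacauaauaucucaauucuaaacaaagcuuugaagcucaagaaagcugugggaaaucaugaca
cme-MIR396b: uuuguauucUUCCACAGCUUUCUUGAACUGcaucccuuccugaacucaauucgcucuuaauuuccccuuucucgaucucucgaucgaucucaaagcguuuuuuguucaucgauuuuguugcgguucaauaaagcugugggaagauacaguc
In all 5 precursors, 123 to 174 bases long, the mature sequence was on the 5′ arm, and 19 to 21 of its 21 bases were paired in the predicted fold. The bases just upstream split the family: those of miR396a and miR396c were identical at 10 of 10 positions and those of miR396b and miR396e at 9 of 9, while those of miR396a and miR396b matched at 3 of 9. Over the whole aligned hairpin, miR396a and miR396c were 75.0% identical, miR396b and miR396e 65.7%, and miR396a and miR396b 57.9%. These identities include the mature sequence. miR396d matched miR396a and miR396c at 8 of 9 upstream positions and miR396b and miR396e at 2 of 9, but over the whole hairpin it was about as close to miR396e (61.3%) as to miR396c (61.8%) and miR396a (60.1%). In the RefSeq gene table of another melon assembly (USDA_Cmelo_AY_1.0), 4 of the 5 names were matched. There MIR396A, MIR396C and MIR396B lie on the same chromosome with 1 other gene between neighbours, and MIR396D lies on a different one.

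miR396b was the most abundant of the 71 sequences in all 8 libraries. From 10DAF to 40DAF the first-batch libraries held 300055, 308685, 691112 and 657878 TPM. The second-batch libraries held 337218, 215164, 353950 and 255018 TPM at the same stages. A doubt attaches to the second-batch values: read counts listed for miR396b in the supplementary material of the study are far above those the deposited values imply for that batch, and exceed them by much more than for miR396a/c/d and miR396e. The difference could not be settled from the files, and the deposited values were used as they stand, so second-batch levels of miR396b, and every batch comparison, ratio or share that uses them, hold only for the deposited values. On these, the first-batch ripening libraries (30DAF and 40DAF) were the highest, and the 4 ripening libraries overlapped with the 4 early ones (10DAF and 20DAF). In the first batch the mean was 304370 TPM in early and 674495 TPM in ripening libraries, a ratio of 2.22, and the same ratio was 1.10 in the second. Over the 8 libraries the SD of its log2(TPM + 5) was 0.61, the 5th lowest among the 52 sequences with a mean of at least 10 TPM.

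miR396a/c/d ranged much further. The first-batch libraries held 87107, 99060, 5850 and 4911 TPM from 10DAF to 40DAF. Those of the second batch held 4439, 4644, 3483 and 4255 TPM. Only the 2 early libraries of the first batch were high, and the other 6 lay within 3483 to 5850 TPM. Between batches it differed 19.6-fold and 21.3-fold at the early stages, and 1.68-fold and 1.15-fold at the ripening stages. In both batches the ripening libraries lay below the early ones, with means 17.3-fold lower in the first and 1.17-fold lower in the second. In the second batch the 95% exact Poisson interval of 40DAF, 3914 to 4617 TPM, overlapped those of both early stages. These were 4272 to 4610 TPM at 10DAF and 4511 to 4781 TPM at 20DAF. The interval of 30DAF, 3135 to 3859 TPM, lay below both. Within that batch only 30DAF thus had an interval clear of those of both early stages. Overlap of intervals is not a test of a difference, and none was made for 40DAF against a single early stage within that batch. The step from 20DAF to 30DAF carried most of the first-batch difference, at 16.9-fold. These libraries were not shallow for this sequence: the high values rest on 27420 and 35676 reads, and the other 6 on 366 to 4576. Its rank by level was 3 in both high libraries and 4 to 7 elsewhere.

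miR396e, with the changed seed base, was the rarest member and, in log2(TPM + 5) over the 8 libraries, the steadiest. The 10DAF libraries held 562 TPM (first batch) and 490 TPM (second batch). The later first-batch libraries held 305, 311 and 352 TPM in order of age, and the second-batch ones 294, 381 and 311. In both batches 10DAF was the highest stage, and the 3 later stages overlapped between batches. The counting error is largest here, since these values rest on 40 to 296 reads: the 95% exact Poisson interval was 482 to 652 TPM for the first-batch library of 10DAF and 272 to 518 TPM for the second-batch library of 30DAF, and covers counting error only. The SD of its log2(TPM + 5) over the 8 libraries, 0.34, was the lowest of the 52 sequences, and that of miR396a/c/d, 2.03, the 6th highest. These ranks hold for that measure. Within the second batch the SD in TPM was 12.1% of the mean for miR396a/c/d, 22.8% for miR396b and 24.0% for miR396e. As a percent of the TPM summed over distinct sequences, miR396e ran from 0.0353 to 0.110 and miR396b from 51.0 to 78.2.

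**Figure D1:**
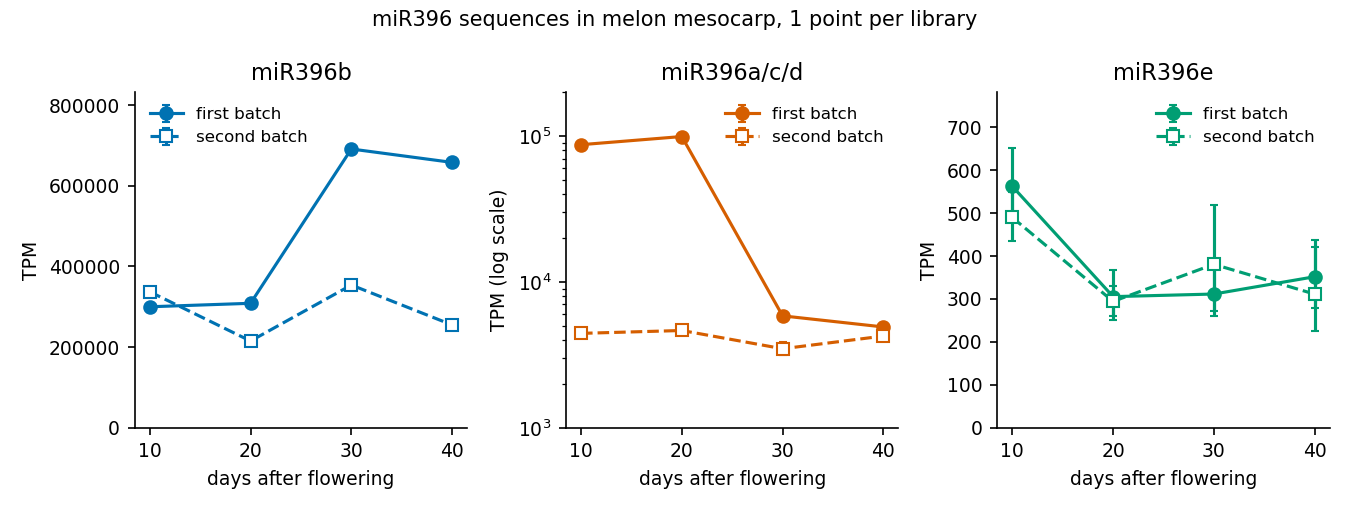
Level in TPM (y axis; logarithmic for miR396a/c/d, linear from 0 for the others) against days after flowering for each miR396 sequence, 1 point per library, filled for the first and open for the second batch, with 95% exact Poisson intervals for counting error. miR396a/c/d stands at 87107 and 99060 TPM in the early first-batch libraries and between 3483 and 5850 TPM in the other 6.

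The order of the members was the same in all 8 libraries: miR396b above miR396a/c/d above miR396e. All have the same length, so the order of these TPM levels does not depend on length. The distance between the first and the second of them varied. From 10DAF to 40DAF miR396b exceeded miR396a/c/d 3.44-fold, 3.12-fold, 118-fold and 134-fold in the first batch. The same ratios were 76.0, 46.3, 102 and 59.9 in the second batch, where they carry the doubt on miR396b and could be larger. Put as a share of the reads of these 2 sequences, miR396a/c/d took 22.5% and 24.3% in the early first-batch libraries, and between 0.741% and 2.11% in the other 6. This share does not depend on the total by which the TPM was divided. The 95% Wilson intervals were 22.3% to 22.7% for the first-batch and 1.25% to 1.35% for the second-batch library of 10DAF, for counting error only.

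**Figure D2:**
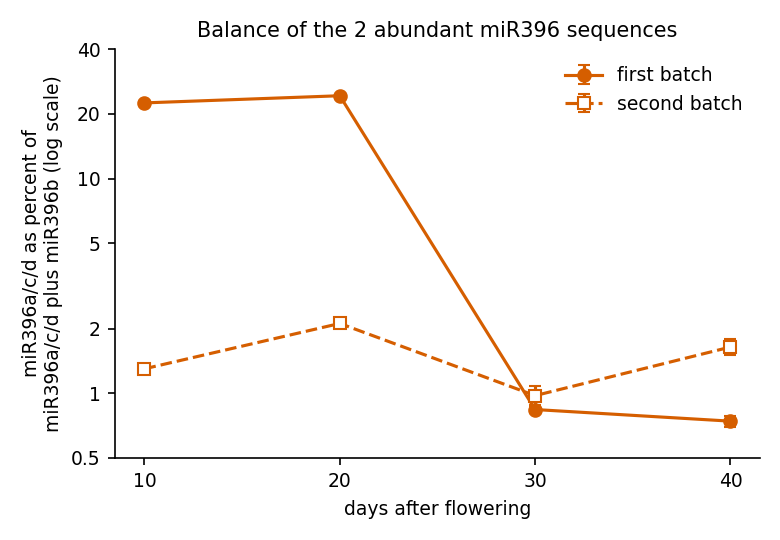
miR396a/c/d as a percent of the reads of miR396a/c/d plus miR396b (y axis, logarithmic) against days after flowering, 1 point per library, filled for the first and open for the second batch, with 95% Wilson intervals. The early first-batch libraries sit at 22.5% and 24.3%, and the other 6 between 0.741% and 2.11%.

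Across the 8 libraries the log2 ratio of miR396a/c/d to miR396b averaged −3.80 ± 2.43 (SD, n = 4) in early and −6.63 ± 0.51 (SD, n = 4) in ripening fruits. The difference of −2.83 did not pass the two-sided exact permutation test (p = 0.0571, and 0.171 adjusted over the 4 ratio tests made, where 4 against 4 libraries can reach 0.0286 at the smallest). In the first batch both early libraries had a higher ratio than both ripening ones, whereas in the second batch 10DAF, at −6.25, lay between the ripening values of −6.66 and −5.90. Between batches the ratio differed by −1.74 on the log2 scale, second minus first (exact permutation p = 0.429, adjusted 0.429), and by −0.84 without the first-batch library of 20DAF or −2.65 without that of 40DAF. The log2 ratio of miR396e to miR396b was 0.88 lower in ripening fruits (exact permutation p = 0.0857, adjusted 0.171), and 0.64 higher in the second batch (exact permutation p = 0.286, adjusted 0.381). Without the first-batch library of 30DAF the latter was 0.35, and without that of 10DAF it was 1.03.

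The members were then tested with all 71 sequences by limma on log2(TPM + 5), with Benjamini-Hochberg adjustment. Between ripening and early stages 0 of the 3 members passed an adjusted p of 0.05, where 5.63% of the 71 sequences did (4, of which 3 were higher and 1 lower; 1 higher and 1 lower under each of 3 other scalings). miR396a/c/d was lower by a log2 difference of −2.18 (SE 1.24, adjusted p = 0.404), miR396b higher by 0.65 (SE 0.47, adjusted p = 0.550) and miR396e lower by −0.23 (SE 0.31, adjusted p = 0.744). At an unadjusted p of 0.05, 0 of the 3 members and 19 of the 71 sequences passed. With the batch as a replicate block, miR396a/c/d passed this unadjusted threshold (limma unadjusted p = 0.0437, adjusted p = 0.172), as it did with median-ratio scaling (0.0176, adjusted p = 0.104), with scaling on the distinct sum (0.0393, adjusted p = 0.233) and without the second-batch library of 20DAF (0.0294, adjusted p = 0.197). Without the second-batch library of 40DAF, miR396b passed it (limma unadjusted p = 0.0443, adjusted p = 0.185).

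Single libraries weighed on these differences. That of miR396a/c/d was −1.10 without the first-batch library of 10DAF, −1.07 without that of 20DAF and −3.28 without the second-batch library of 20DAF. That of miR396b was 0.31 and 0.41 without the first-batch libraries of 40DAF and 30DAF, 0.99 without the second-batch library of 40DAF and 0.24 with scaling on the distinct sum. The 95% interval for miR396a/c/d was −5.14 to 0.79.

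Between single stages, tested in the same limma model, no member passed either. The study used a fold change over 1.5 with an unadjusted p below 0.05 as its threshold. By that form, 0 of the 3 members passed in 20DAF against 10DAF, where 7.04% of all sequences did. It was also 0 of 3 in 30DAF against 20DAF (5.63% of all), in 40DAF against 30DAF (9.86% of all) and in 40DAF against 10DAF (22.5% of all). Leaving out 1 library turned that call for a pair of members. Without the second-batch library of 20DAF, miR396a/c/d differed by −4.45 between 30DAF and 20DAF (unadjusted p = 0.0459, adjusted 0.723), and without the second-batch library of 10DAF, miR396e differed by −0.90 between 20DAF and 10DAF (unadjusted p = 0.0349, adjusted 0.600).

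The batches differed in how miR396a/c/d changed with ripening. On the log2 scale its ripening minus early difference was −4.11 for the first-batch and −0.24 for the second-batch libraries, and the interaction of stage and batch was 3.88 (SE 0.47, 95% interval 2.79 to 4.96, limma adjusted p = 0.00214), the smallest p of the 71 sequences. Of the 3 members, 1 passed, against 2.82% of all sequences (2, the other being miR7129). The table as a whole shifted in the same direction, with a median interaction of 1.11 over the 71 sequences, and the value of miR396a/c/d is to be read beside that median. With every library scaled on its 66 sequences outside miR159 and miR396, the interaction was 2.94 (adjusted p = 0.0529), and with median-ratio scaling it was 2.61 (adjusted p = 0.0536), so that the call was lost under both while the direction was kept. Leaving out any 1 of the 8 libraries kept it between 3.73 and 4.02 (adjusted p 0.00765 to 0.0265). This fit treats the 2 early, and the 2 ripening, stages of a batch as its replicates, and the 2 high libraries are both of the first batch.

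The interaction was −0.99 for miR396b (SE 0.47, adjusted p = 0.284; −2.25 with median-ratio scaling, −1.93 when scaled on those 66 sequences and −0.62 on the distinct sum, none past the threshold) and 0.18 for miR396e (SE 0.73, adjusted p = 0.913). For the batches themselves, with stage in the model, 0 of the 3 members passed against 2.82% of all sequences. miR396a/c/d came closest, 2.42 lower in the second batch on the log2 scale (SE 0.85, limma unadjusted p = 0.0301, adjusted p = 0.200), followed by miR396b, with a difference of −0.67 (SE 0.41, adjusted p = 0.420; −0.05 on the distinct sum, −0.14 with median-ratio scaling and −0.44 without either 40DAF library). miR396e differed by −0.03 (SE 0.33, adjusted p = 0.947), and the 95% interval of −0.86 to 0.79 leaves room for a change in either direction.

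Set beside the other 51 of the 52 sequences with a mean of at least 10 TPM, miR396a/c/d had the most negative ripening difference in the first batch. In that batch 28 of the 52 were lower and 23 higher in ripening fruits. In the second batch 11 were lower and 41 higher. For 22 the direction was not the same in the batches, counting miR845, whose first-batch difference was 0. In the first batch 17 were lower by more than 1 on the log2 scale, of which 3 were also lower by more than 1 in the second. The median ripening difference was −0.09 in first-batch and 1.10 in second-batch fruits. miR396e lay near 0 in both batches, at −0.32 and −0.14, and miR396b was at 1.15 and 0.16.

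**Figure D3:**
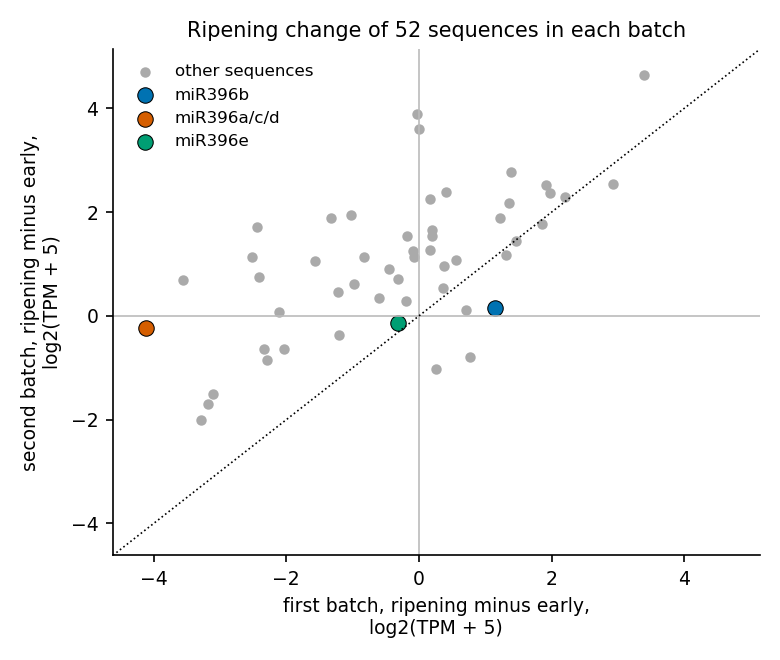
Ripening minus early difference of the mean log2(TPM + 5) in the second batch (y axis) against the first batch (x axis) for the 52 sequences with a mean of at least 10 TPM; coloured points are the miR396 sequences, grey points the others, and the dotted line marks equal change. miR396a/c/d is the leftmost point, at −4.11 on the x axis and −0.24 on the y axis.

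Together the members took more of the TPM summed over distinct sequences than any other family in all 8 libraries. The miR159 family, 2 sequences known to target GAMYB-like transcription factors, held most of the rest. The miR396 share was 66.1%, 71.4%, 78.9% and 76.1% from 10DAF to 40DAF in the first batch. It was 77.1%, 53.4%, 70.7% and 51.9% in the second, nearly all of it miR396b, so that the doubt on its second-batch values applies to these shares and to their comparison with the first batch. The share thus moved in steps of opposite sign in the batches between 10DAF and 20DAF. It averaged 67.0% ± 10.1 in early and 69.4% ± 12.1 in ripening fruits (SD, n = 4), with full overlap over the 8 libraries. In the first batch both ripening shares were above both early ones, whereas they overlapped in the second. The miR159 share mirrored that of miR396, at 27.4%, 21.6%, 17.9% and 21.5%, followed by 17.4%, 37.3%, 23.6% and 39.2% for the second batch. Shares of a sum are bound to trade against each other, so this is no separate measurement. The remaining 66 sequences held 2.40% to 9.34%. Leaving miR159 out of the sum, miR396 held 85.1% to 96.9%.

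miR396b alone was 51.0% to 78.2% of the sum. miR396a/c/d was 14.8% and 17.3% in the early first-batch libraries and 0.564% to 1.13% in the other 6, and miR396e 0.0353% to 0.110%. In the first batch, then, the family share covered opposite differences within it: the share of miR396a/c/d was 16.1% in early and 0.613% in ripening libraries, while that of miR396b was 52.6% and 76.9%. In the second batch these shares were 1.06% and 0.770% for miR396a/c/d, and 64.1% and 60.5% for miR396b. For miR396b in the first batch the ratio of ripening to early was 1.46 as a share of the sum, against 2.22 in TPM. The TPM of the distinct sequences summed to 58.7% and 57.1% of 1000000 in the early first-batch libraries, 88.3% and 87.2% in the ripening ones, and 41.2% to 50.6% in the second batch. Counted once per name, which takes miR396a/c/d 3 times, the first-batch sums were 79.6%, 80.5%, 92.0% and 89.9%. The second-batch sums would be larger with the supplementary counts of miR396b. What else the totals contain is not given in the sources used here, and its part in the TPM differences of miR396b was not tested.

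**Figure D4:**
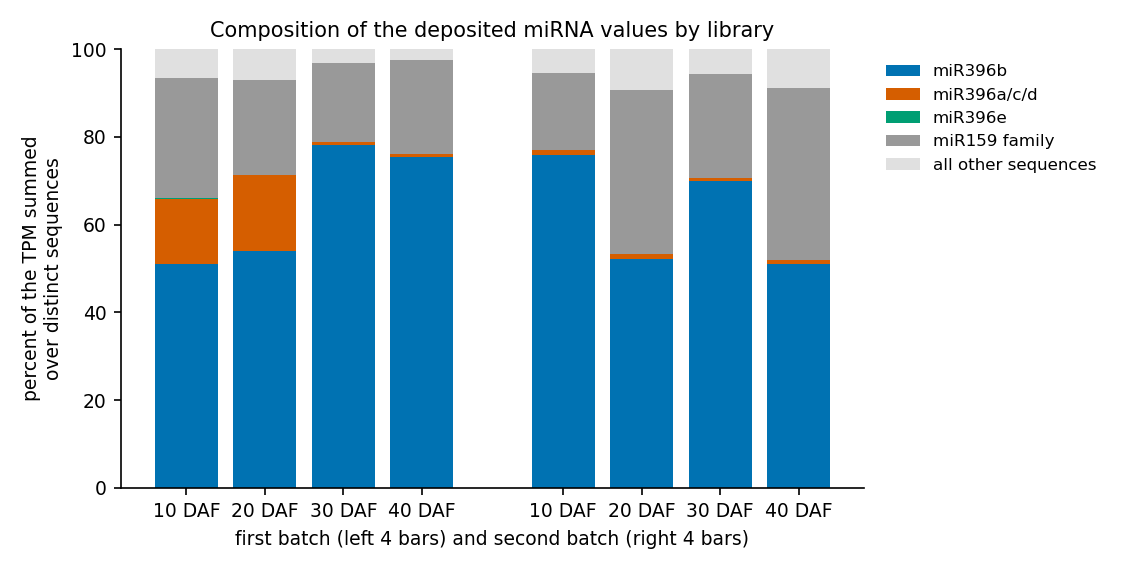
Percent of the TPM summed over the 71 distinct sequences (y axis, from 0) held by each miR396 sequence, the miR159 family and all other sequences, 1 stacked bar per library, first batch on the left and second batch on the right. The orange part, miR396a/c/d, is 14.8% and 17.3% in the 2 early first-batch bars and at most 1.13% in the others; miR396e is too thin to be seen in most bars.

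The sequences most like each member were found by Pearson correlation of log2(TPM + 5) over the 8 libraries, among the 49 sequences of other families with a mean of at least 10 TPM; the points share their library totals, and r is given as a description. Nearest to miR396a/c/d were miR168 (r = 0.917), miR395b/c (r = 0.906) and miR397 (r = 0.868). miR168, which targets ARGONAUTE1, the core protein of miRNA action, was at 575 and 305 TPM in the early first-batch libraries and at 10.2 to 57.1 in the other 6. miR395b/c, of a family known for targeting sulfate assimilation genes, was at 349 and 239 TPM in that pair and at 8.27 to 56.0 elsewhere. miR397, whose known targets are laccases, was at 47.7 and 208 TPM there and at 0 to 17.0 elsewhere, where 3 reads are worth up to 28.6 TPM. In each case the high libraries were the ones in which miR396a/c/d was high. These sequences were picked for that likeness, so this is no separate result.

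For miR396b the nearest were miR169t (r = 0.730), miR408 (r = 0.660) and miR399c (r = 0.637), of families known for NF-YA transcription factors, copper proteins and phosphate homeostasis. miR169t was highest in the first-batch library of 40DAF, at 781 TPM, and lowest in the second-batch library of 20DAF, at 79.2, which was also the library with the least miR396b. For miR396e they were miR159b (r = 0.697), miR390a/b/c/d (r = 0.607) and miR160a/b/c (r = 0.538), the last of a family that targets auxin response factors. Within the family, r was −0.19 between miR396a/c/d and miR396b, 0.28 between miR396a/c/d and miR396e and −0.04 between miR396b and miR396e. These pairs were fixed by name, whereas the nearest sequences were the highest of 49 values of r for each member. The 2 kinds of r are therefore not to be compared.

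Other miRNA families known to act in organ growth and patterning (miR160, miR164, miR166, miR167, miR319 and miR393) were taken as a list for comparison. Of their 16 distinct sequences, 1 was higher in ripening fruits at an adjusted limma p of 0.05 and 0 were lower, beside the 5.63% over all sequences. The one that rose was miR164c/d, of the family that targets NAC transcription factors, with a log2 difference of 4.02 (SE 0.59, adjusted p = 0.0228). Leaving out the first-batch library of 20DAF, 30DAF or 40DAF, or the second-batch library of 20DAF or 30DAF, left 0 of the 71 sequences past that threshold, this one included. The median of the list was −0.24, against 0.08 over all 71 sequences, and this difference was not tested. The list includes miR160d, miR166e, miR166i and miR167e, with means of 0.40, 6.0, 4.3 and 1.6 TPM. These lie below the mean of 10 TPM asked for elsewhere and near the floor of 3 reads, so their differences carry little weight. The pair of miR319 sequences, which target TCP transcription factors in leaf growth, differed by −1.58 and −1.49 (adjusted p = 0.174 and 0.125). miR319a/b was also the sequence least like miR396b over the libraries (r = −0.82): it was highest, at 25038 TPM, in the second-batch library of 20DAF, where miR396b was lowest, and lowest, at 2020 TPM, in the first-batch library of 40DAF.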

How the data were processed

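Small RNA-seq was carried out on 8 mesocarp libraries. According to the methods of the study, adapters and low-quality reads were removed, reads matching other RNA classes discarded, and the rest matched to known plant miRNAs; Bowtie is the tool named in the submitters' processing notes. The values deposited by the authors are RPM, which they call TPM, rounded to 2 decimals; 1 line with an extra empty field was read by position. No other columns were left out, and no columns of the authors' comparisons were used. The members and the list of growth families were chosen with earlier results of these data known.

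For each library the total was taken as the whole number that turns all values into whole reads within rounding; it held for 100% of the values, and 3 reads are the floor. Sequences carried by several names were counted once. log2(TPM + 5) was tested with limma 3.58.1 (R 4.3.3), with mean-variance trend and no filter, in 1 model of the 4 stages, in a model of stage and batch, and in a model of early or ripening stage, batch and their interaction; the scripts were tested on simulated data. Ratios were tested with exact two-sided permutation tests (scipy 1.17.1). Fold changes on this scale understate changes of rare miRNAs. Precursors, taken from the supplementary tables of the study, were folded with ViennaRNA 2.7.2. The named sequences were the members, the 3 most like each, the miR159 family and the growth list.

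The replicate number marks a shared batch. Over the 71 sequences, the deviations of libraries with the same number correlated in 6 of 6 pairs of stages (r 0.352 to 0.664), so the numbers pair the samples. Alternatives were pseudocounts of 1 and 20, a filter, other scalings, every name as a line, no trend, a replicate block and leaving out each library. Coordinates are not given, because the genome build of the authors was not used here.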

Additional observations from a re-analysis of the deposited data

Results flagged for a closer look

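In the main fit the ripening change of miR396a/c/d differed between the batches: the interaction was 3.88 on the log2 scale (limma adjusted p = 0.00214), from ripening minus early differences of −4.11 (first batch) and −0.24 (second batch). The median interaction of all sequences was 1.11. The call was lost with scaling on the sequences outside miR159 and miR396 (2.94, limma adjusted p = 0.0529). It was also lost with median-ratio scaling (2.61, limma adjusted p = 0.0536). The fit takes the 2 stages of a kind in a batch as replicates. In each batch both ripening libraries were below both early ones in TPM. In the second batch only 30DAF had an exact Poisson interval clear of those of both early stages, and overlap of intervals is not a test of a difference. The exact Poisson interval of 40DAF there, 3914 to 4617 TPM, overlapped those of 10DAF (4272 to 4610) and 20DAF (4511 to 4781). Growing year, sequencer and mixing of fruits change with the batch and cannot be told apart. In 20 tests of the lowest and highest library among groups of 4 (early, ripening, first batch, second batch), none stood apart by Dixon's criterion, where chance gives about 1 in 20. That criterion looks for 1 library apart from all others of its group. It cannot flag the 2 high libraries of miR396a/c/d, which fall together in the early and in the first-batch group, and nothing is concluded from it for them.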

How the results depend on the processing

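Counts are of the 71 distinct sequences. The count between ripening and early stages (4) was 2 with a pseudocount of 1, with scaling on the 66 sequences outside miR159 and miR396 (the other families), with median-ratio scaling and with scaling on the distinct sum (the last chosen after seeing the data), and 0 to 5 without 1 library. Between 20DAF and 10DAF (5) it was 3 with scaling on the other families, 2 on the distinct sum, 3 with voom weights on recovered reads (also chosen after seeing the data), 2 with only the 4 libraries compared and 1 to 7 without 1 library. Between 30DAF and 20DAF (4) these were 8 on the other families, 2 on the distinct sum, 10 with every name as a line, 8 without the trend, 8 with only the 4 libraries and 0 to 6 without 1 library. Between 40DAF and 30DAF (7) they were 15 with every name, 4 with voom, 4 with only the 4 libraries and 3 to 8 without 1 library. The 40DAF and 10DAF count (16) was 9 with only the 4 libraries and 12 to 16 without 1 library.

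Between batches the count (2) was 0 with a pseudocount of 20, 5 with median-ratio scaling, 1 on the distinct sum and 0 to 0 without 1 library. The interaction count (2) was 5 after the filter, 0 on the other families and with median-ratio scaling, 4 with every name, 1 with voom and 1 to 8 without 1 library, where a stage kind of a batch may rest on 1 library assumed to vary like the others. The interaction of miR396a/c/d, 2.94 and 2.61 under those first 2 scalings, was past the threshold in the other 15 of 17 alternatives. The causes of these changes were not tested.

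The sign of miR396e was not stable in these 3 comparisons, in which it passed no threshold. Its ripening difference was 0.0073 on the other families. Its batch difference was 0.49 with median-ratio scaling and 0.58 on the distinct sum, and −0.14 to 0.020 without 1 library (0.020 and 0.012 were the values above 0). Its interaction was −0.75 on the other families and −1.07 with median-ratio scaling, and −0.25 to 0.62 without 1 library. These scalings moved the median ripening difference of all sequences from 0.08 to 0.25 on the other families, −0.12 with median ratios and −0.15 on the distinct sum. The ripening and batch differences of miR396a/c/d and miR396b kept their sign, below the threshold, under all alternatives.

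With the replicate block, the batch as a term, the ripening difference of miR396a/c/d had an adjusted limma p of 0.172 and the count was 6; it passed at an unadjusted p (0.0437), and the block changed no other call of a member. For the ratios, exact permutation within the pairing gave p = 0.111 for miR396a/c/d and 0.0556 for miR396e to miR396b between stages (0.0556 is the smallest it can give), and 0.5 and 0.25 between batches. The planned edgeR test was not run. Without 1 library the ratio differences ranged from −3.64 to −2.11 and −1.12 to −0.64 between stages, and the family share difference (2.43 points) from −2.11 to 8.25 points; it was −0.19 with every name counted. Depth limits miR396e most, at 40 reads in its shallowest library.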
